A study of Mus musculus with 6 samples.

Results

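The 10 genes examined here mark alternatively activated, tissue-resident and perivascular macrophages, and they were followed in tumours of B16F10 cells, a mouse melanoma line. They are Retnla, Clec10a, Mgl2, Mrc1, Arg1, Cd163, Cd209f, Lyve1 and Chil3, with Nos2 as the classical counterpart of Arg1. They were selected by symbol as markers, with earlier results of these data known, and all 10 were found among the 20938 genes of the deposited table. There were 3 tumours of cells overexpressing YKL-40, a secreted chitinase-like protein, and 3 control tumours, each sequenced as bulk RNA. The cells, in 200 μL of saline, had been injected subcutaneously into the left hind leg of male C57BL/6 mice aged 6 weeks, hosts with their own immune cells, and the tumours were taken on day 19. The labels call the genotype of all 6 samples WT and the cell type melanoma cells. The vector of the control cells, the species of the overexpressed sequence and the number of clones are not given in the sources used here. Whether each library had a mouse of its own is not stated, so p-values measure the spread between these samples, which may be technical.

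Interleukin-4 and interleukin-13 signal through the shared receptor chain Il4ra and the transcription factor Stat6, and in mouse macrophages they switch on a set of genes that includes Retnla, Arg1, Chil3, Mrc1 and the lectin pair Clec10a and Mgl2. Interferon gamma and microbial products induce Nos2 instead, whose enzyme competes with arginase for arginine. Lyve1, Cd163, Mrc1 and some Cd209 lectins mark macrophages that live along vessels and in connective tissue. Few of these genes belong to macrophages alone: Lyve1 is also a gene of lymphatic endothelium, Clec10a and Mgl2 are made by some dendritic cells, and Chil3 is made by monocytes and neutrophils.

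RefSeq (GRCm38.p6) gave a start site for 6 of the 10 genes. The 250 bases before the start are shown for the 3 of them whose values did not overlap between the groups, on the gene's own strand. Capitals mark TTCNNNNGAA, a palindrome with the spacing that Stat6 binds.
Retnla, chr16:48842359-48842608, plus strand: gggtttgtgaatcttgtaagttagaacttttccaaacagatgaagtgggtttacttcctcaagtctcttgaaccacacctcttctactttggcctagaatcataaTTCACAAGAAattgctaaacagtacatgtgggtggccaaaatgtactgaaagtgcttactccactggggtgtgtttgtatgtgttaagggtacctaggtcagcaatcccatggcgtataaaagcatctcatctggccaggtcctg
Mgl2, chr11:70130107-70130356, plus strand: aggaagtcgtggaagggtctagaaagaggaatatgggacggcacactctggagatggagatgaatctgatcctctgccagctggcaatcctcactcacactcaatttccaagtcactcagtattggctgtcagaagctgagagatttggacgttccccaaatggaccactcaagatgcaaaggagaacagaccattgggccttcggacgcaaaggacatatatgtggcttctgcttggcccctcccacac
Cd209f, chr8:4105765-4106014, minus strand: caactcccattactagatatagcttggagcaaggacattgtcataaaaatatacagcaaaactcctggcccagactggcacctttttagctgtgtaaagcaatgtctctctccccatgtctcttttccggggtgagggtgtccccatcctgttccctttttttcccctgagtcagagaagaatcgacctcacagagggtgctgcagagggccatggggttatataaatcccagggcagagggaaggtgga
Retnla held 1 match, at -145 to -136 from the start, and a TATA box (TATAAA) at -30 to -25. Mgl2 and Cd209f held no match to TTCNNNNGAA, and Cd209f had a TATA box at -29 to -24. Of 32851 RefSeq windows of this length, 5.85% held TTCNNNNGAA and 12.4% held TATAAA. The NF-kB consensus was found in 0 of the 6 windows (3.90% of all windows). Both strands were searched. These are matches of letters and not measured binding.

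Values are FPKM, fragments scaled to transcript length and library depth. Changes are YKL-40 minus control in log2(FPKM + 1), with the standard error (SE) of the limma fit, and limma's p-values carry a Benjamini-Hochberg adjustment over all 11241 genes that averaged 1 FPKM or more. The number of reads is not given. From the ratios of low values, depths relative to control library 1 were estimated at 0.946 to 1.20 in the YKL-40 libraries and 1 to 1.34 in the controls. The search covered only ratios near 1, so large differences in depth could not have been found. Outside control library 1, each estimate rested on 22 to 41 genes. The gene of YKL-40, Chil1 in the table, was listed at 0 in all 3 YKL-40 libraries and at 0.0644, 0 and 0.0242 FPKM in the controls, so the groups below rest on the labels. Skeletal muscle genes, 12 in all, summed to 6.10 to 27.8 FPKM in the YKL-40 libraries and 40.6 to 168 FPKM in the controls, and their part in the results was not tested beyond a fit with them as a covariate. The sums did not overlap between the groups, so that fit can hardly separate muscle genes from the group. Calls lost and signs turned under it therefore say nothing about the part of muscle.

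Of the 10 genes, 6 were higher in every YKL-40 library than in every control, and 2 of these, Cd209f and Lyve1, rose past the adjusted threshold. The 6 were Retnla, Clec10a, Mgl2, Cd209f, Lyve1 and Nos2, and their mean FPKM was between 5.52-fold and 55.9-fold that of the controls. Mrc1, Cd163, Chil3 and Arg1 overlapped between the groups. Among all 16417 genes with a value above 0, 10.7% were higher and 11.3% lower without overlap (10.3% and 14.2% of the tested genes). Of the tested genes 0.436% passed the adjustment, 0.365% higher and 0.0712% lower. In the same fit 6 of the 9 tested members had an unadjusted p under 0.05, all higher, against 8.71% higher and 9.24% lower among all tested genes. The median change of the 10 genes was 1.43, against -0.01 over all genes in the fit without a filter. Cd163, with a mean of 0.651 FPKM, was the 1 member below the filter. Retnla, Clec10a, Mgl2, Cd209f and Lyve1 averaged under 1 FPKM in the controls and entered the test through their YKL-40 values, so the number of tested members past the threshold says little. In bulk tumours, more macrophages and more RNA per macrophage cannot be told apart.

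**Figure D1:**
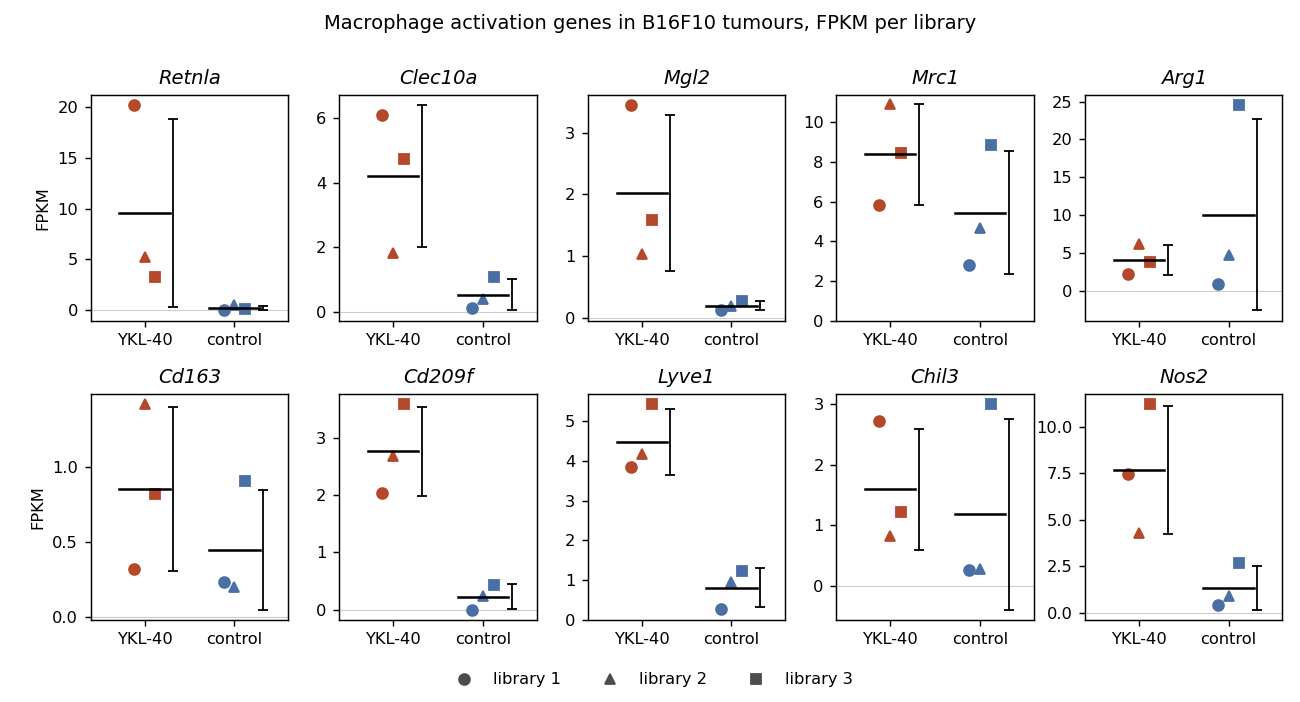
FPKM of each of the 10 genes in each library (vertical axes, FPKM, each gene on its own scale), YKL-40 tumours left of control tumours. Symbols stand for library numbers, lines for means and bars for ± SD (n = 3). 6 panels show no overlap between groups, while control library 3 has the highest Arg1 (24.5 FPKM) and Chil3 (2.99 FPKM) of all.

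Retnla, a secreted resistin-like protein and one of the strongest interleukin-4 targets of mouse macrophages, differed most in size. It had 20.2, 5.18 and 3.23 FPKM in YKL-40 libraries 1 to 3, against 0, 0.449 and 0.0621 FPKM in control libraries 1 to 3. Every YKL-40 library was above every control, but library 1 was far above the other two. The change was 2.83 ± 0.54 (SE) and did not pass over all genes (limma adjusted p = 0.0789).

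Clec10a and Mgl2 are neighbouring lectin genes on chromosome 11 (70156197 to 70170834 and 70130329 to 70137550, GENCODE M21, mm10) whose products bind galactose-type sugars on glycoproteins. Clec10a had 6.09, 1.82 and 4.72 FPKM in the YKL-40 libraries, against 0.134, 0.417 and 1.09 FPKM in the controls. Mgl2 had 3.44, 1.03 and 1.58 FPKM in the YKL-40 libraries, against 0.129, 0.192 and 0.284 FPKM in the controls. In both genes YKL-40 library 1 was highest and library 2 lowest, and in the controls library 3 was highest and library 1 lowest. The changes were 1.70 ± 0.37 for Clec10a and 1.25 ± 0.28 for Mgl2 (SE), neither past the adjustment (limma adjusted p = 0.0881 and 0.0918). Without YKL-40 library 2 both passed (limma adjusted p = 0.0251 and 0.0474). The genes share sequence: 270 stretches of 50 bases occur in transcripts of both, 12.2% of those of Mgl2 and 8.49% of those of Clec10a, so the division of reads between them is uncertain.

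Cd209f (chromosome 8, 4102787 to 4105835, minus strand) encodes a C-type lectin of the DC-SIGN family. It had 2.04, 2.69 and 3.59 FPKM in the YKL-40 libraries, against 0, 0.241 and 0.435 FPKM in the controls, and rose by 1.62 ± 0.21 (SE; limma adjusted p = 0.0386). The YKL-40 libraries lay close together, and the lowest was well above the highest control. Of its transcript stretches of 50 bases, 29.8% also occur in Cd209g, so part of its reads could come from that gene. Cd209g, named after its values were seen, was listed lower, at 0.244, 0.325 and 0.55 FPKM in the YKL-40 libraries and at 0, 0 and 0.0435 FPKM in the controls. Of 6 other Cd209 genes, 5 were higher in every YKL-40 library than in every control, beside 10.7% of all genes above 0. The values were low, and together the 6 summed to 1.52 to 4.21 FPKM in the YKL-40 libraries and 0.187 to 0.393 FPKM in the controls.

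Lyve1 (chromosome 7, 110850607 to 110863239, minus strand) encodes a hyaluronan receptor. It had 3.84, 4.17 and 5.42 FPKM in the YKL-40 libraries, against 0.273, 0.940 and 1.22 FPKM in the controls, and rose by 1.62 ± 0.23 (SE; limma adjusted p = 0.0431). Again the YKL-40 libraries lay close together and did not overlap with the controls. The 6 other lymphatic endothelial genes examined gave these values: they summed to 19.1 to 22.6 FPKM in the YKL-40 libraries and 13 to 26.5 FPKM in the controls, and limma passed 0 of the 3 tested, with 1 unadjusted p under 0.05, lower. That gene, named like Ccl21a after the values were known, was Prox1, the transcription factor that sets lymphatic identity, with 2.21, 2.32 and 2.28 FPKM in the YKL-40 libraries and 3.51, 2.83 and 2.78 FPKM in the controls. Ccl21a, a lymphatic chemokine, was listed at 0 in all 6 libraries. Pdpn, also named after the values were known, was the largest part of the lymphatic sum in every library. It had 17.5, 12.1 and 18.0 FPKM in the YKL-40 libraries and 6.36, 8.67 and 19.9 FPKM in the controls, so the sum mainly follows this gene. The calls for Cd209f and Lyve1 were both lost without control library 1 (adjusted p = 0.113 and 0.0931 in limma), without control library 2 (0.131 and 0.139), without YKL-40 library 1 (0.107 and 0.138) and without YKL-40 library 3 (0.0785 and 0.119), with changes between 1.39 and 1.76. They were also lost with pseudocounts of 0.1 (limma adjusted p = 0.0744 for each, changes of 3.41 and 2.50) and 0.01 (0.156 and 0.0848, changes of 4.71 and 2.68), without the filter (0.107 and 0.115) and with skeletal muscle as a covariate (0.863 for each, changes of 1.69 and 1.65). With that covariate, which runs with the group, the SE rose to 0.40 for Cd209f and 0.44 for Lyve1.

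Mrc1 and Cd163, which are scavenger receptors of resident macrophages, overlapped between the groups. Mrc1, the mannose receptor CD206, had 5.81, 10.9 and 8.45 FPKM in the YKL-40 libraries, against 2.80, 4.69 and 8.84 FPKM in the controls. Control library 3 reached the level of the YKL-40 libraries, and the change of 0.62 ± 0.35 (SE) did not pass (limma adjusted p = 0.400). Cd163, the receptor for haemoglobin bound to haptoglobin, had 0.323, 1.42 and 0.820 FPKM in the YKL-40 libraries, against 0.235, 0.203 and 0.908 FPKM in the controls (change 0.35 ± 0.27 in the fit without a filter, limma adjusted p = 0.585). For both genes YKL-40 library 2 was the highest of its group and library 1 the lowest, the opposite order to Clec10a and Mgl2, where library 1 was highest and library 2 lowest. Without control library 1 the change of Mrc1 was 0.29, and without control library 3 it was 0.98.

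Arg1, which splits arginine into ornithine and urea, was the 1 member with a change below 0. It had 2.26, 6.25 and 3.81 FPKM in the YKL-40 libraries, against 0.940, 4.75 and 24.5 FPKM in the controls. The controls spanned the whole range of the YKL-40 group and beyond, and the change of -0.44 ± 0.84 (SE) did not pass (limma adjusted p = 0.819). Without control library 3 it was 0.54, and with skeletal muscle as a covariate 1.47, neither past the threshold. Chil3, or Ym1, a chitinase-like protein related to YKL-40, had 2.72, 0.832 and 1.22 FPKM in the YKL-40 libraries, against 0.265, 0.286 and 2.99 FPKM in the controls (change 0.41 ± 0.48, limma adjusted p = 0.689). Control library 3 was highest here too, and the change was 0.96 without it and 0.11 without YKL-40 library 1. In that control library the 10 neutrophil genes examined summed to 16.9 FPKM, of which S100a9 was 11.6 FPKM. The sum was 1.11 to 1.35 FPKM in control libraries 1 and 2 and 2.90 to 10.0 FPKM in the YKL-40 libraries. S100a8, Retnlg, Cxcr2 and Mmp8 were also highest in control library 3, while Mmp9, Csf3r and Mpo were highest in a YKL-40 library. Ly6g and Elane were at 0 throughout. The part of neutrophil genes in the values of Arg1 and Chil3 was not tested. Chil4, a paralog of Chil3 that shares 16.9% of its stretches of 50 bases, was listed at 0 in every library.

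Nos2, the inducible nitric oxide synthase, had 7.46, 4.32 and 11.2 FPKM in the YKL-40 libraries, against 0.453, 0.926 and 2.67 FPKM in the controls. The groups did not overlap, and the change of 1.91 ± 0.40 (SE) did not pass over all genes (limma adjusted p = 0.0846). It passed without control library 3 (limma adjusted p = 0.0439). The ratio of Nos2 to Arg1 in FPKM was 3.29, 0.692 and 2.93 in the YKL-40 libraries, against 0.481, 0.195 and 0.109 in the controls, with no overlap. On the log2(FPKM + 1) scale the difference between the genes was 0.75 ± 1.04 in the YKL-40 libraries and -1.60 ± 1.19 in the controls (SD, n = 3 each), where YKL-40 library 2 and control library 1 overlapped (exact two-sided permutation p = 0.2, adjusted 0.267 over 4 pairs of members). With 3 against 3 libraries this test cannot go below 0.1. Lyve1 relative to Mrc1 differed by 1.01 and Cd209f relative to Mrc1 by 1.00, each without overlap (exact permutation p = 0.1, adjusted 0.2), so in these libraries the ratio of either gene to Mrc1 was higher in every YKL-40 tumour. Mgl2 relative to Clec10a differed by -0.45 with overlap (exact permutation p = 0.3, adjusted 0.3).

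Ranked by mean FPKM, the most abundant member in the YKL-40 libraries was Retnla (9.53 ± 9.27), followed by Mrc1 (8.40 ± 2.57), Nos2 (7.65 ± 3.42), Lyve1 (4.48 ± 0.831), Clec10a (4.21 ± 2.18), Arg1 (4.11 ± 2.01), Cd209f (2.77 ± 0.779), Mgl2 (2.02 ± 1.26), Chil3 (1.59 ± 0.997) and Cd163 (0.854 ± 0.548; SD, n = 3). Each neighbouring pair in that order overlapped over its libraries. The controls were led by Arg1 (10.1 ± 12.6) and Mrc1 (5.44 ± 3.09), whose lowest library was above every library of the next gene, Nos2 (1.35 ± 1.17). Chil3 (1.18 ± 1.57), Lyve1 (0.811 ± 0.487), Clec10a (0.547 ± 0.491), Cd163 (0.449 ± 0.398), Cd209f (0.225 ± 0.218), Mgl2 (0.202 ± 0.0782) and Retnla (0.170 ± 0.243) followed, with overlap between neighbours. A single library set each first place: Retnla led in YKL-40 library 1 but was below Mrc1 and Arg1 in library 2 and below 6 other members in library 3, and the mean of Arg1 in the controls rested on library 3. The 10 genes summed to 54.2, 38.7 and 44.0 FPKM in the YKL-40 libraries, against 5.23, 13.1 and 43.0 FPKM in the controls. Control library 3 reached the sum of the YKL-40 libraries with another make-up: Arg1 was 56.9% of it and Retnla 0.145%, whereas in YKL-40 library 1 Arg1 was 4.18% and Retnla 37.2%. Control library 3 was highest of the controls in 9 of the 10 genes and control library 1 lowest in 9. In the YKL-40 group no library led throughout: library 1 was highest for 4 genes, library 2 for 3 and library 3 for 3.

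**Figure D2:**
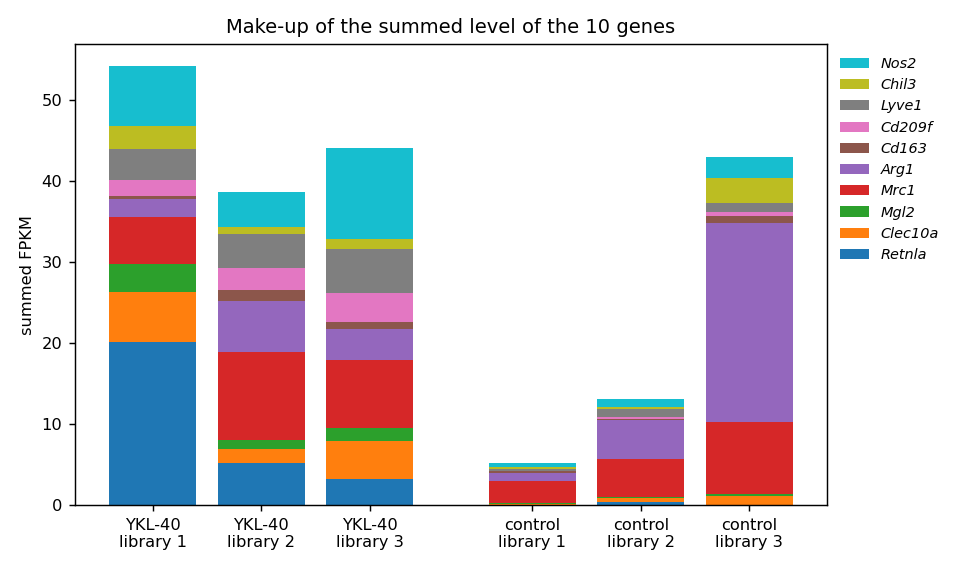
Summed FPKM of the 10 genes in each library (vertical axis), with 1 colour per gene, YKL-40 libraries on the left. Control library 3 reaches 43.0 FPKM mostly through Arg1 and Mrc1, while Retnla, Clec10a and Nos2 take a larger share of each YKL-40 bar than of any control bar.

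General macrophage genes were higher in the YKL-40 libraries as well, so each member was also set against them. The mean log2(FPKM + 1) of 20 such genes was 4.41, 4.53 and 4.93 in the YKL-40 libraries, against 3.03, 3.54 and 4.22 in the controls, a difference of 1.02 without overlap (exact two-sided permutation p = 0.1). Of the 20, 15 had an unadjusted p under 0.05 in limma, all higher, and 0 passed the adjustment. The 3 of lowest p in limma were C1qa, a complement subunit made by tissue macrophages (66.2, 63.2 and 99.2 FPKM in the YKL-40 libraries, against 12.6, 21.7 and 32.3 FPKM in the controls), the myeloid transcription factor Spi1 (change 1.36) and Aif1 (change 1.14). Of the 20, 14 were higher without overlap, beside 10.7% of all genes above 0. The changes were not uniform: Apoe differed by 0.18, and Cx3cr1 alone was below 0, at -0.25. After subtraction of this mean, Retnla (difference 1.81), Nos2 (0.89), Cd209f (0.60) and Lyve1 (0.60) were still higher in every YKL-40 library than in every control (exact permutation p = 0.1 for each, adjusted 0.25 over the 10 members). Clec10a (0.68) and Mgl2 (0.23) then overlapped, and Mrc1 (-0.40), Chil3 (-0.61), Cd163 (-0.68) and Arg1 (-1.46) had differences below 0, with overlap. Lyve1 relative to the macrophage mean was -2.18 ± 0.06 in the YKL-40 libraries and -2.78 ± 0.25 in the controls, and Cd209f was -2.72 ± 0.08 and -3.32 ± 0.34 (SD, n = 3 each). For genes this low, a subtraction on the log2(FPKM + 1) scale also depends on the pseudocount: with 0.1 or 0.01, 6 members did not overlap.

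**Figure D3:**
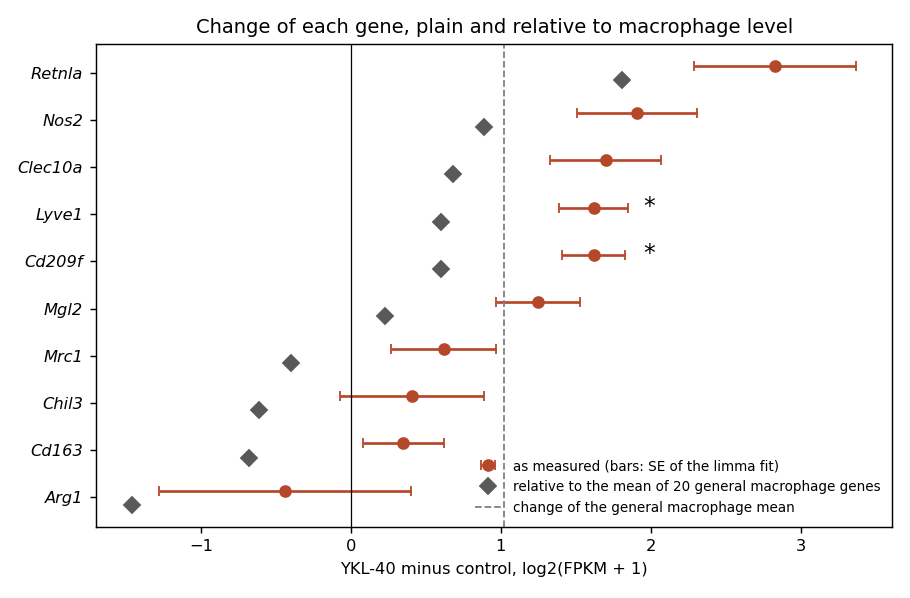
Difference YKL-40 minus control in log2(FPKM + 1) for each gene (horizontal axis). Circles give the change with its SE, from the fit without a filter for Cd163, diamonds the difference relative to the mean of 20 general macrophage genes, and the dashed line the change of that mean (1.02); asterisks mark Cd209f and Lyve1, which passed the adjustment. In all, 6 circles lie right of the dashed line and 4 left of it.

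Among genes of interleukin-4, interleukin-13 and related cytokine signalling, 1 of 16 tested rose, 0 fell, and 9 had an unadjusted p under 0.05 in limma, all higher (median change 0.88, against -0.04 over all tested genes). The 9 were Il2rg, Socs1, Socs3, Il10ra, Stat3, Il33, Il1rl1, Csf1 and Csf1r, the last also counted below general macrophage genes above. The other tested genes, Il4ra, Il13ra1, Jak1, Jak3, Tyk2, Stat6 and Il10rb, were not under 0.05, so the count and median do not describe the interleukin-4 and interleukin-13 receptor chains and Stat6. The gene that rose was Il1rl1, the receptor of interleukin-33, with 3.39, 1.73 and 4.08 FPKM in the YKL-40 libraries, against 0, 0.147 and 0.238 FPKM in the controls (change 1.81, limma adjusted p = 0.0400), a call lost without the filter (adjusted p = 0.112), with a pseudocount of 0.01 (0.103), with the muscle covariate (0.863) and without either control library 1 (0.147), control library 2 (0.139), YKL-40 library 1 (0.144) or YKL-40 library 3 (0.0833). Stat3, which carries interleukin-10 signals and was the most abundant of the list, had 96.4, 67.6 and 55.7 FPKM in the YKL-40 libraries, against 42.9, 55.2 and 45.1 FPKM in the controls (limma adjusted p = 0.205). Of the list's other genes, values are given for 5, picked with those values in view. Il4 was listed at 0 in all 6 libraries and Il13 at 0.0231, 0 and 0.0184 FPKM in the YKL-40 libraries and 0.0160, 0 and 0.0616 FPKM in the controls. Their receptor chain Il4ra had 7.64, 6.66 and 10.6 FPKM in the YKL-40 libraries, against 1.70, 3.17 and 8.23 FPKM in the controls, with overlap. Stat6 had 40.7, 40.4 and 38.9 FPKM in the YKL-40 libraries, against 36.6, 37.9 and 44.2 FPKM in the controls (change 0.02 ± 0.10, SE). Il33 had 33.3, 6.96 and 30.2 FPKM in the YKL-40 libraries, against 1.55, 2.11 and 3.13 FPKM in the controls.

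Of 19 other alternative activation genes in the table, 5 were higher without overlap (10.7% of all genes above 0) and 0 lower (11.3%). Of 11 tested, limma passed 0, the unadjusted p was under 0.05 for 3, all higher, and the median change was 0.09. Ccl22, a chemokine of the interleukin-4 programme that dendritic cells also make, had 12.9, 2.68 and 4.42 FPKM in the YKL-40 libraries, against 0.336, 0.931 and 0.718 FPKM in the controls (change 1.99, limma adjusted p = 0.0928). The inhibitory receptor Cd200r1 had a change of 1.09 (adjusted p = 0.0881) and the beta-glucan receptor Clec7a one of 0.67 (0.264, limma). Cd36, the fatty acid receptor and the most abundant gene of the list, had 13.3, 24.1 and 22.5 FPKM in the YKL-40 libraries, against 17.0, 23.9 and 28.2 FPKM in the controls.

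Of 15 tested genes of resident and perivascular macrophages, limma passed 0, the unadjusted p was under 0.05 for 7, all higher, and the median change was 0.70. Over all 22 on the list, 12 were higher in every YKL-40 library, beside the 10.7% of all genes above. Cbr2, a carbonyl reductase, had 11.2, 16.9 and 12.1 FPKM in the YKL-40 libraries, against 5.24, 3.65 and 6.88 FPKM in the controls (change 1.21, limma adjusted p = 0.0780). The chemokine Ccl8 had 7.59, 5.37 and 10.9 FPKM in the YKL-40 libraries, against 0.481, 1.31 and 2.72 FPKM in the controls (1.89, adjusted p = 0.0780 in limma). Folr2, a folate receptor of resident macrophages, had 3.99, 4 and 5.49 FPKM in the YKL-40 libraries, against 0.676, 0.963 and 2.57 FPKM in the controls (1.26, limma adjusted p = 0.0918). Selenop, the selenium carrier and the most abundant of the list, differed by 0.06.

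Classical activation genes gave 1 rise among 11 tested, with 0 falls and 9 at an unadjusted p under 0.05 in limma, all higher (median change 1.11). The interferon-induced factor Irf1, which activates Nos2, had 40.5, 30.3 and 73.5 FPKM in the YKL-40 libraries, against 9.01, 11.7 and 10.2 FPKM in the controls (change 2.03, limma adjusted p = 0.0472). That call was lost with a pseudocount of 0.01 (limma adjusted p = 0.0526), without the filter (0.119), with median of ratios scaling (0.0545), without a variance trend (0.0537), with the muscle covariate (0.863) and without control library 1 (0.171), control library 2 (0.139) or YKL-40 library 1 (0.144). Genes that handle arginine around Arg1 and Nos2 gave no call: of 11 tested, limma passed 0, and the unadjusted p was under 0.05 for 2, both higher (median change 0.14). These were Gatm, which makes guanidinoacetate from arginine (change 0.64), and Asl, argininosuccinate lyase, at 98.1, 97.4 and 101 FPKM in the YKL-40 libraries and 86.7, 86.3 and 76.3 FPKM in the controls. Ddah1, which degrades inhibitors of nitric oxide synthases, differed by 0.31 and the ornithine decarboxylase gene Odc1, the most abundant of the list, by 0.14, neither past the threshold. Of the tested relatives of the members, Mrc2 (0.57), Pla2r1 (0.31) and Ly75 (0.72) are of the mannose receptor family, and limma passed 0 of these 3 (Ly75 alone had an unadjusted p under 0.05).

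**Figure D4:**
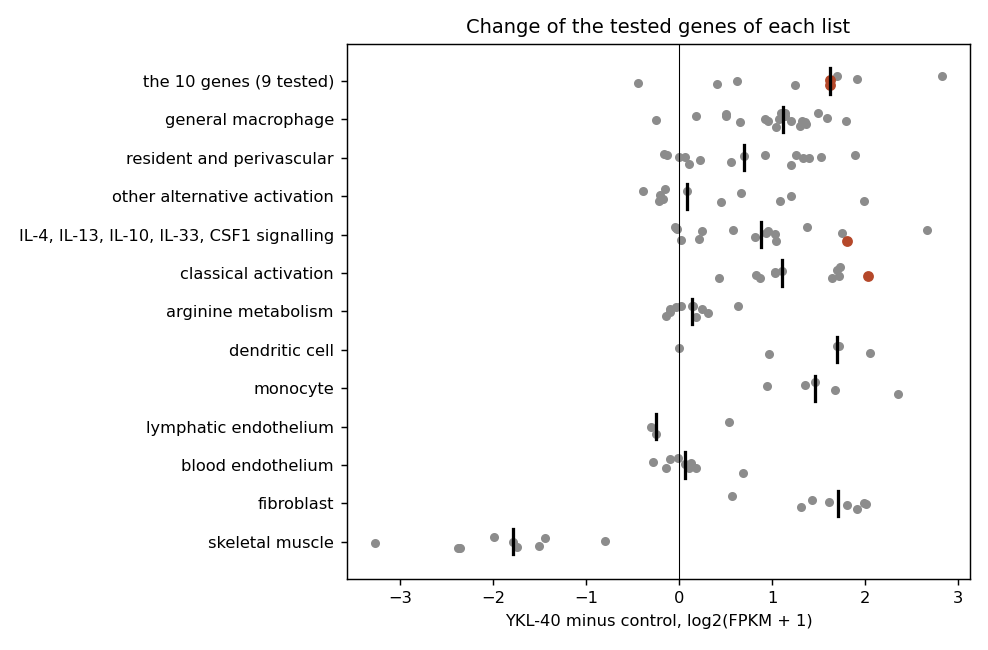
Difference YKL-40 minus control in log2(FPKM + 1) for each tested gene (points) of 13 gene lists (rows), with the list median as a black bar and genes past the adjustment in red. The median is 1.62 for the 9 tested members, of which 5 entered through their YKL-40 values (1.43 over all 10 without the filter), 1.12 for general macrophage genes, 0.09 for other alternative activation genes and -1.79 for skeletal muscle.

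Of the markers of other cells, the summed dendritic cell, T cell and eosinophil genes did not overlap between the groups, and the sums of monocyte, fibroblast, mast cell, blood endothelial, adipocyte and melanoma genes did. Dendritic cell genes, 10 in all, summed to 18.5 to 41.4 FPKM in the YKL-40 libraries and 5.03 to 11.4 FPKM in the controls. Of the 10, 8 were higher without overlap, as were Clec10a, Mgl2 and Ccl22. Over all genes above 0 that share was 10.7%, which also stands beside the monocyte and fibroblast counts below. YKL-40 library 2 was the lowest of its group for the dendritic cell sum and for Clec10a, Mgl2 and Ccl22. It was also lowest for the monocyte, fibroblast, T cell, mast cell and adipocyte sums, but not for the blood endothelial, melanoma and eosinophil sums. Monocyte genes, 7 without Chil3, summed to 23.1 to 74.0 FPKM in the YKL-40 libraries and 3.07 to 24.1 FPKM in the controls, with 3 of the 7 higher without overlap. Fibroblast genes, which mark the connective tissue where perivascular macrophages live, summed to 240 to 427 FPKM in the YKL-40 libraries and 42.4 to 252 FPKM in the controls, with 5 of the 8 higher without overlap. Eosinophil genes, 7 in all, were low and summed to 0.28 to 1.94 FPKM in the YKL-40 libraries and 0 to 0.181 FPKM in the controls, with Epx, Prg2 and Ear6 at 0 throughout. Most of that sum was Ear2, named after its values were seen, with 1.81, 0.475 and 0.264 FPKM in the YKL-40 libraries, against 0, 0.111 and 0.0938 FPKM in the controls. As for Retnla, YKL-40 library 1 was highest for Ear2 and library 3 lowest. The list's Siglecf, Ccr3 and Il5ra overlapped between the groups. Siglecf had 0.0213, 0 and 0 FPKM in the YKL-40 libraries, against 0, 0.0183 and 0.0605 FPKM in the controls. T cell genes summed to 9.20 to 22.8 FPKM in the YKL-40 libraries and 1.79 to 5.76 FPKM in the controls. Mast cell genes summed to 1.08 to 1.82 FPKM in the YKL-40 libraries and 0.216 to 1.76 FPKM in the controls. Blood endothelial genes summed to 58.9 to 91.1 FPKM in the YKL-40 libraries and 48.5 to 103 FPKM in the controls, and adipocyte genes to 54.2 to 99.9 FPKM in the YKL-40 libraries and 59.1 to 98.5 FPKM in the controls. Of the defining melanoma genes, limma passed 0 of 7, with 1 unadjusted p under 0.05, and they summed to 8580 to 10700 FPKM in the YKL-40 libraries and 8570 to 10000 FPKM in the controls. The part of these cells in the members' values was not tested.

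Likeness of profile was measured as the root mean square difference between log2(FPKM + 1) profiles over the 6 libraries, each centred on its own mean, so that smaller is more alike. Nearest to Retnla were Ccl22 (0.554), the granzyme Gzmc (0.578) and the transcriptional coactivator Cited1 (0.632). Gzmc had 6.82, 1.53 and 1.57 FPKM in the YKL-40 libraries, against 0, 0.0489 and 0.112 FPKM in the controls, and so shared the high YKL-40 library 1. Nearest to Mrc1 were Gas6, a ligand of macrophage phagocytic receptors (0.0860), Olfml2b (0.114) and Pcdhgc3 (0.114), each with control library 3 among the YKL-40 values. Gas6 had 7.05, 11.3 and 10.6 FPKM in the YKL-40 libraries, against 3.12, 5.24 and 9.45 FPKM in the controls. Nearest to Arg1 were the chemokine Cxcl14 (0.475), the matricellular gene Ccn4 (0.5) and the macrophage elastase Mmp12 (0.512), all highest in control library 3. Nearest to Nos2 were Ccl8 (0.119), the myeloid transcription factor Irf8 (0.149) and the lectin receptor Clec4a3 (0.150), and Irf8 had 16.8, 7.99 and 19.5 FPKM in the YKL-40 libraries, against 1.20, 2.51 and 5.03 FPKM in the controls. The 6 libraries share their group difference, so many genes lie near any member that follows it.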

How the data were processed

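Per the labels' protocols, TruSeq RNA v2 libraries, which are not stranded, were built from 2 µg of RNA of each of 6 tumours. The authors deposited 1 FPKM value per gene and library. Per the submitters' processing notes, the build was mm10 and the tools were HISAT2, StringTie, limma, DESeq2 and bcl2fastq 2.0, with no role given for each. How transcripts were combined and which annotation was used are not given in the sources used here.

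Groups came from the sample titles. Values were taken as log2(FPKM + 1), which understates changes of low genes. Genes averaging 1 FPKM or more were tested with limma 3.58.1 in R 4.3.3 (moderated variances with a trend, two-sided, Benjamini-Hochberg threshold 0.05). Simulated data of 11241 genes gave back 76.6% of changes of 1 and 94.4% of changes of 2, with 5.21% false calls. The simulated noise was independent between genes. The changes were placed on randomly drawn tested genes, so these shares are averages and not rates for low or variable genes such as the members. Exact permutation tests over libraries used SciPy 1.17.1. The 10 members and all gene lists were chosen with earlier results of these data known. Other genes were named by a rule: of each pathway list those called, or the 3 of lowest p, and the most abundant, and the 3 nearest in profile to Retnla, Mrc1, Arg1 and Nos2. Of these, 1 gene is not reported here. Positions and transcript stretches of 50 bases came from GENCODE M21 (mm10), start sites from RefSeq GRCm38.p6. No sample was left out.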

Additional observations from a re-analysis of the deposited data

How the results depend on the processing

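Read numbers are unknown, so no counting interval could be given, and members under 1 FPKM rest on few reads. The count of genes past the threshold, 49 in all, was 1 without a filter, 1111 with array quality weights, 0 with the skeletal muscle covariate (566 at an unadjusted p under 0.05 in limma) and 0 to 238 when 1 library was left out. The count of members past it, 2 in all, was 0 with a pseudocount of 0.1 or 0.01, without a filter, with a filter at a mean of 5 FPKM (2 members tested, 0 at an unadjusted p under 0.05 in limma) and with the muscle covariate (4 at an unadjusted p under 0.05 in limma), 6 with array quality weights, and 0 to 4 when 1 library was left out. The 6 were Retnla, Clec10a, Mgl2, Cd209f, Lyve1 and Nos2. The median change of tested members, 1.62, was 2.63 and 2.76 with pseudocounts of 0.1 and 0.01 and 0.09 with the filter at 5 FPKM, which leaves Mrc1 and Arg1, and it ran from 1.39 to 1.74 without single libraries. Scaling to the same sum or by the median of ratios kept both member calls. The cause of these shifts was not tested, save where fewer genes or libraries entered. The muscle covariate runs with the group, so losses under it cannot be read as an effect of muscle.

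Same-numbered libraries of the groups did not deviate together (correlations of -0.0832, -0.185 and 0.0017 over 11241 genes for numbers 1 to 3). Differently numbered libraries reached 0.204 (YKL-40 library 2 with control library 1). With 3 libraries per group, these values cannot decide whether the numbers pair the libraries. With the replicate number as a block, 120 genes and 3 members passed, Nos2 being the third (limma adjusted p = 0.0405), and the median of tested members was 1.62.

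Changes that turned their sign were not past the threshold. Without single libraries, the change of Arg1 ran from -1.32 to 0.54, of Cd36 from -0.41 to 0.04, of Selenop from -0.03 to 0.15, of Cxcl14 from -0.65 to 0.67 and of Ccn4 from -0.58 to 0.53. With the muscle covariate it was 1.47 for Arg1, 0.12 for Cd36, 2.03 for Cxcl14, 0.98 for Ccn4 and 0.90 for Mmp12. With array weights it was 0.19 for Cxcl14 and 0.03 for Ccn4, and with pseudocounts of 0.1 and 0.01 it was 0.05 and 0.07 for Ccn4. Without YKL-40 library 1 Mgl2 was below the filter.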
